A study of Mus musculus with 6 samples.

Results

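The heat shock chaperones examined here are 10 genes picked by symbol, Hspa1a, Hspa1b, Hsph1, Dnajb1, Hspa8, Hsp90aa1, Hspb1, Hspe1, Hspd1 and Hspa5, out of 48397 gene symbols in the count files. All 10 were found in each of the 6 libraries and all 10 passed the filter on low counts, as did 16198 genes in total. The libraries were made from EGFP+ cells sorted out of mouse lungs at postnatal day 8. Every pup was PdgfraEGFP/+, that is, heterozygous for an EGFP reporter allele of the PDGF receptor gene that marks lung mesenchyme. Dams of the same genotype had been injected intraperitoneally at E18.5 (late gestation), in 3 libraries with the hedgehog-binding antibody 5E1 and in 3 with control IgG. No uninjected group was analysed. The chaperones were compared as a check of dissociation or heat stress between the groups. No label says whether the libraries of a group came from separate pups, pools or litters, so the p-values cover no more than the spread among these 6 samples, which may be technical.

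Heat shock proteins bind unfolded or newly made proteins and help them fold, assemble or be degraded. When unfolded protein builds up in the cytosol, for example on heating, the transcription factor HSF1 binds heat shock elements, repeats of the unit NGAAN in alternating orientation, and raises transcription of HSP70, HSP40, HSP110, HSP90 and small heat shock protein genes within minutes. The endoplasmic reticulum and the mitochondria each have chaperones of their own, and their genes can answer to the unfolded protein responses of those organelles. Heat shock elements are not limited to genes of cytosolic chaperones, since the windows of Hspe1 and Hspd1 hold matches too (below). Enzymatic dissociation of solid tissue and sorting are known to induce the cytosolic heat shock genes together with immediate early genes.

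Promoter windows were searched for exact matches to these elements. RefSeq (GRCm38.p6) start sites were found for 8 of the 10 genes, as 11 windows of 300 bases. The 6 windows below are shown because they hold the paired copies, the small heat shock protein gene, the clearest heat shock elements and the element of the endoplasmic reticulum chaperone. Each runs from 200 bases before to 30 bases after the annotated start, 5′ to 3′. Capitals mark GAANNTTC or TTCNNGAA, 2 adjoining heat shock units, and in Hspa5 the ER stress element, CCAAT and CCACG with 9 bases between them.
Hspa1a (chr17:34972127-34972356, minus strand): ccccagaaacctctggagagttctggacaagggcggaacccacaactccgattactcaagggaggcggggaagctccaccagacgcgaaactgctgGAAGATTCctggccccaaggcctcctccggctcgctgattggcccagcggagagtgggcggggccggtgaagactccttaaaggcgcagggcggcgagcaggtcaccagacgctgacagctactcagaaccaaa
Hspa1b (chr17:34959209-34959438, minus strand): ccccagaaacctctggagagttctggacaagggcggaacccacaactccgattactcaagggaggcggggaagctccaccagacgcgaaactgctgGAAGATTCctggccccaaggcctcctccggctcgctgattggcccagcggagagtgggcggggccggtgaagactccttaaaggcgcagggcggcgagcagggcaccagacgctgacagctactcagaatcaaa
Hspb1 (chr5:135887719-135887948, plus strand): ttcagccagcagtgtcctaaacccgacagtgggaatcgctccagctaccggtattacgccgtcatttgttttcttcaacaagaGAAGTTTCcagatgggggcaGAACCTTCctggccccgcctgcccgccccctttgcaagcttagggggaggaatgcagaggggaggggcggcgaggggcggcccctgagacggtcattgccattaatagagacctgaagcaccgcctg
Hsph1 (chr5:149636286-149636515, minus strand): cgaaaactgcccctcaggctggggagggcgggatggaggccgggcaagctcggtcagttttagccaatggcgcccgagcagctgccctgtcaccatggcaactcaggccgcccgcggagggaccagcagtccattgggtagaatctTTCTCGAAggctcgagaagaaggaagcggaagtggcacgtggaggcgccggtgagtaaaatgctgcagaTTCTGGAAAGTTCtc
Hspe1 (chr1:55087948-55088177, plus strand): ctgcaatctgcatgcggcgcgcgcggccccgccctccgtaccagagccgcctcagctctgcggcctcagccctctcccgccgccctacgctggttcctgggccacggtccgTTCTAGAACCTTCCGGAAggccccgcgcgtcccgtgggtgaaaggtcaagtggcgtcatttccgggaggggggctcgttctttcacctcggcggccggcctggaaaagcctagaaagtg
Hspa5 (chr2:34771890-34772119, plus strand): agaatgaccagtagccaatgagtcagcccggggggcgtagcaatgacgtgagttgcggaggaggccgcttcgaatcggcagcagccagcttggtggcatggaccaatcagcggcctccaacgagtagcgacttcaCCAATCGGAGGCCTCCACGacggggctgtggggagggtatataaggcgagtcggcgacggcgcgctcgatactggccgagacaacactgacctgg

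Searched on both strands, 3 adjoining units (GAA and TTC in turn, with NN between neighbours) occurred in 198 of 32851 promoter windows (0.603%), and 3 of the 8 members had them, Hsph1, Hspe1 and Hspd1. Matches to 2 units, which overlap those to 3 units, occurred in 15.1% of windows. Hspa1a and Hspa1b each held 1 such match, at -104 to -97 from the start, and Hspb1 held 2. Neither of the 2 windows of Dnajb1, nor the window of Hspa5, nor the other window of Hspd1 held a match to 2 or 3 units. Hspa5 held the ER stress element, found in 39 windows (0.119%), together with 4 CCAAT boxes, of which 1 lies within that element. CCAAT or ATTGG was present in 37.4% of all windows. Hspe1 and Hspd1 lie head to head, so that 285 of 300 bases of the Hspe1 window and of 1 Hspd1 window are the same DNA (chr1:55087898-55088182), and its heat shock units serve as a match for both. The 300-base windows of Hspa1a and Hspa1b agree at 296 positions (98.7%). The search took exact letters, so an element with a changed base or outside the windows was not counted. A window without a match may thus still hold an element. A match to letters says nothing on binding in these cells.

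**Figure D1:**
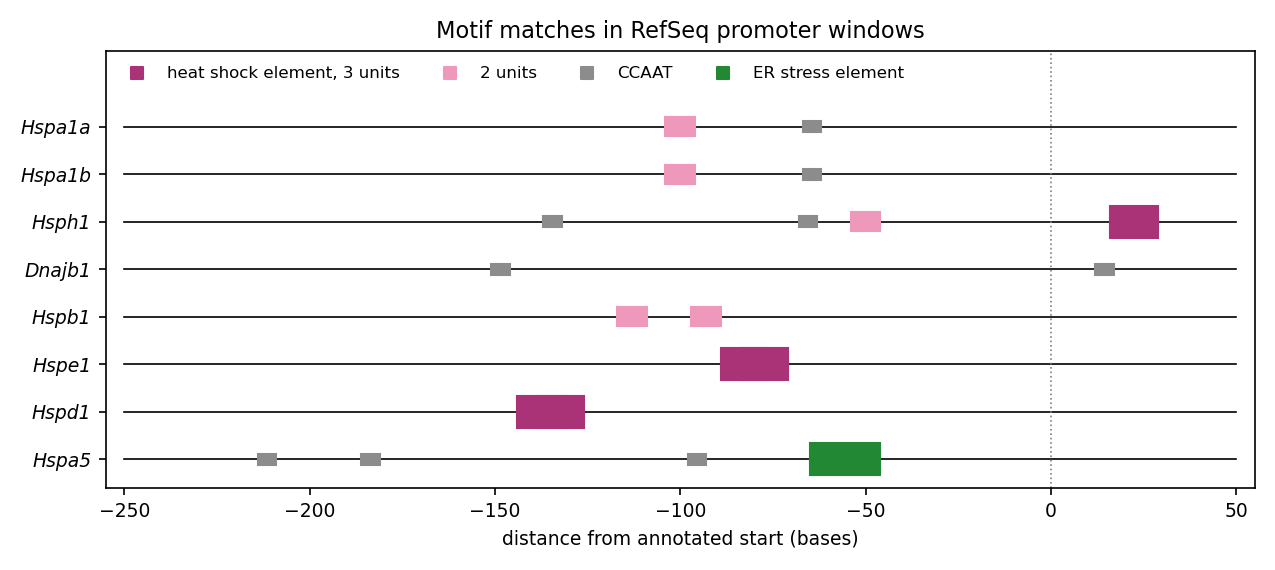
Motif matches in 1 RefSeq promoter window per gene, by distance in bases from the annotated start (dotted line). The boxes with 3 heat shock units lie in Hsph1, Hspe1 and Hspd1, the ER stress element in Hspa5, and Dnajb1 has exact matches to CCAAT alone.

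Gene counts summed to between 16958433 and 34318583 reads per library, and the groups overlapped. The sorted cells expressed mesenchymal genes at high levels, with Pdgfra at 502 ± 77.5 CPM (counts per 1000000 gene reads on TMM-scaled library sizes) and Col1a1 at 14753 ± 2608 CPM in IgG (SD, n = 3). The 10 chaperones took between 0.322% and 0.384% of gene reads in IgG libraries and between 0.439% and 0.559% in 5E1 libraries. In bulk RNA, fewer cells of a type and less RNA per cell cannot be told apart, and this holds for every difference below. Within IgG, replicate 2 was the lowest library for 8 of the 10 genes, and within 5E1, replicate 2 was the highest for 8 of 10. These are also the libraries of least (16958433) and most (34318583) gene reads and of the largest and smallest share of unaligned reads (42.9% and 20.4%). Calls that ended without both are named with the results.

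The 7 members that work in the cytosol and nucleus were higher after 5E1, and the 3 of the mitochondria and the endoplasmic reticulum were not called. By edgeR's quasi-likelihood test with Benjamini-Hochberg adjustment over all genes, 7 of 10 members rose (Hspa1a, Hspa1b, Hsph1, Dnajb1, Hspa8, Hsp90aa1 and Hspb1) and 0 fell. Among all genes tested 12.1% were called higher (1966), 11.1% lower (1791) and 23.2% in either direction. On library size alone the split over all genes was 1312 higher and 3274 lower, and the same 7 members rose. The median log2 fold change of the 10 was 0.55, beside 0.00087 over all genes. For the same 7 genes every 5E1 library lay above every IgG library, a pattern shown by 20.8% of all genes, while 21.4% had 5E1 wholly below IgG and 42.2% did not overlap in either direction. At an unadjusted p under 0.05, edgeR called these 7 genes and no others of the list, and DESeq2 and limma-voom also gave 7 higher and 0 lower.

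**Figure D2:**
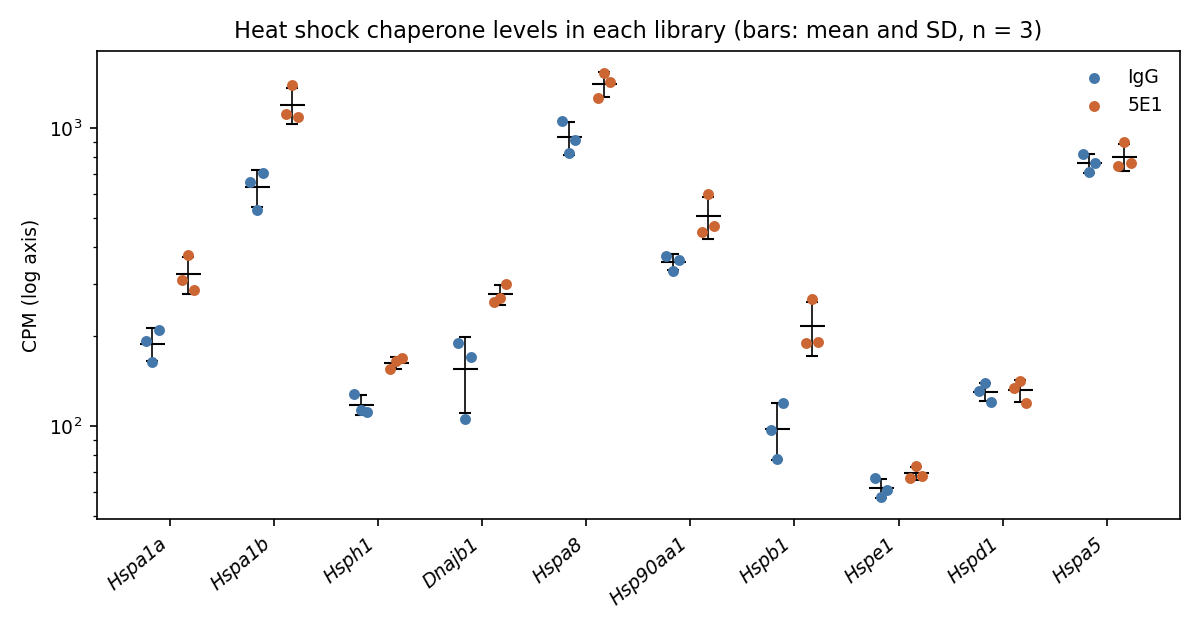
CPM (log axis) of the 10 heat shock chaperones in each library, IgG in blue and 5E1 in orange, with the mean and SD of 3 libraries as bars. The 5E1 points lie above all IgG points for Hspa1a to Hspb1 and overlap them for Hspe1, Hspd1 and Hspa5.

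The strictly inducible HSP70 proteins are encoded by 2 neighbouring copies on chromosome 17, Hspa1a (ENSMUSG00000091971.3, 34969190 to 34972156, minus strand) and Hspa1b (ENSMUSG00000090877.3, 34956436 to 34959238, minus strand). Hspa1b measured 660, 532 and 710 CPM in IgG replicates 1 to 3 and 1119, 1395 and 1090 CPM in 5E1 replicates 1 to 3. The groups did not overlap, and the lowest 5E1 library was well above the highest IgG library. Its mean rose from 634 ± 92.0 to 1201 ± 168 CPM (SD, n = 3 each). That is 1.89-fold, with a 95% interval of 1.53 to 2.35 and an edgeR adjusted p of 0.00125 (log2 scale 0.92, SE 0.14). Hspa1a measured 193, 164 and 211 CPM in IgG and 310, 375 and 286 CPM in 5E1. It rose 1.71-fold, with an interval of 1.41 to 2.07 and an edgeR adjusted p of 0.00176. In both genes IgG replicate 2 was the lowest of all libraries and 5E1 replicate 2 the highest. Without both of these libraries the log2 fold changes were 0.56 for Hspa1a and 0.68 for Hspa1b, with edgeR adjusted p of 0.00469 and 0.00346.

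The 2 copies are hard to tell apart by reads. Their transcripts agree at 2537 of 2973 alignment columns (85.3%), where gaps count as differences. Of the 75-base windows, 54.2% in Hspa1a and 55.8% in Hspa1b also occur in another gene, nearly all of them in the other copy. The counts set multiply aligned reads aside, so a read from a shared stretch was given to neither copy. In addition, 564 exonic bases of Hspa1a (19.0%) overlap Gm20481 on the opposite strand, and how the counting treated strand is not given in the sources used here. Added into a single feature, the copies rose from 823 ± 116 to 1525 ± 214 CPM, 1.85-fold, with an edgeR adjusted p of 0.00158. The balance of the copies is given as a description. Hspa1b had 3.43, 3.25 and 3.37 reads per Hspa1a read in the IgG libraries and 3.60, 3.72 and 3.81 in the 5E1 libraries. These ratios were chosen after their values were seen. An exact permutation test gave p 0.1, the smallest value possible with 3 libraries per group, so it could not pass.

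Both partners of HSP70 among the members rose as well. Dnajb1 (chromosome 8, 83608193 to 83612653, plus strand) encodes an HSP40 co-chaperone that delivers substrates to HSP70 and starts its ATP cycle. It measured 190, 105 and 170 CPM in IgG and 261, 269 and 301 CPM in 5E1, with IgG replicate 2 far below the other two. The mean rose 1.78-fold (95% interval 1.30 to 2.45, edgeR adjusted p 0.0199). That call ended without IgG replicate 3 (edgeR adjusted p 0.0526), 5E1 replicate 2 (0.0575) or 5E1 replicate 3 (0.0756), at log2 fold changes of 0.90, 0.85 and 0.77. Without IgG replicate 2 and 5E1 replicate 2 together it held, at a log2 fold change of 0.64 and an edgeR adjusted p of 0.00391. Hsph1 (chromosome 5, 149614287 to 149636376, minus strand) encodes HSP110, a nucleotide exchange factor of HSP70 that helps dissolve aggregates. Its levels of 128, 113 and 112 CPM in IgG and 155, 165 and 169 CPM in 5E1 were tight within each group, and the groups did not overlap. It rose 1.39-fold, with an interval of 1.21 to 1.58 and an edgeR adjusted p of 0.00362.

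Hspa8 (chromosome 9, 40800984 to 40810087, plus strand) encodes HSC70, the constitutive cytosolic HSP70 that also uncoats clathrin vesicles and serves chaperone-mediated autophagy. It measured 1056, 827 and 910 CPM in IgG and 1262, 1530 and 1432 CPM in 5E1. It rose 1.51-fold (95% interval 1.25 to 1.83, edgeR adjusted p 0.00732), and the groups did not overlap. Hsp90aa1 (chromosome 12, 110690605 to 110702728, minus strand) encodes the inducible HSP90, which holds kinases and steroid receptors in an activatable state. Its levels were 373, 331 and 362 CPM in IgG and 450, 600 and 471 CPM in 5E1, with 5E1 replicate 2 apart from the other two. It rose 1.43-fold (95% interval 1.18 to 1.72, edgeR adjusted p 0.0127), a call that ended without IgG replicate 2 (0.0579) and without both replicates 2 (log2 fold change 0.32, edgeR adjusted p 0.0559). Of their 75-base windows, 32.8% in Hspa8 and 42.8% in Hsp90aa1 recur in pseudogenes or other copies, so the levels of both are uncertain.

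The small heat shock protein gene Hspb1 had the highest fold change of the 10. Hspb1 (chromosome 5, 135887919 to 135889563, plus strand) encodes HSP25, the mouse form of HSP27, an ATP-independent holdase that also binds actin filaments and is abundant in muscle. It measured 97.0, 77.7 and 120 CPM in IgG and 191, 267 and 191 CPM in 5E1. Every 5E1 library was above every IgG library. The mean rose 2.20-fold, from 98.2 ± 21.1 to 216 ± 43.8 CPM (SD, n = 3 each), with a 95% interval of 1.64 to 2.96 and an edgeR adjusted p of 0.00400. Without both replicates 2 the log2 fold change was 0.81 instead of 1.14, with an edgeR adjusted p of 0.00133. Of 6 smooth muscle markers 5 were called lower in 5E1, beside 11.1% of all genes. Their summed levels were 4437 to 4812 CPM in IgG and 2309 to 3484 CPM in 5E1. Any link between these markers and Hspb1 was not tested. Hspb1 shares 46.4% of its 75-base windows with the pseudogene Hsp25-ps1.

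The mitochondrial chaperonin did not pass. Hspd1 (chromosome 1, 55077835 to 55088243, minus strand) and Hspe1 (chromosome 1, 55088132 to 55091307, plus strand) encode HSP60 and its lid HSP10, which together enclose a folding chamber in the matrix. Hspd1 measured 131, 139 and 121 CPM in IgG and 134, 142 and 120 CPM in 5E1, and the groups overlapped throughout. The ratio of 5E1 to IgG was 1.01 with a 95% interval of 0.879 to 1.17 (edgeR adjusted p 0.909). Hspe1 measured 67.1, 57.8 and 61.2 CPM in IgG and 66.8, 73.2 and 68.2 CPM in 5E1. Its groups overlapped by 1 library, and the ratio was 1.12 with an interval of 0.981 to 1.28 (edgeR adjusted p 0.200). In the annotation their exons share 112 bases on opposite strands. Per Hspe1 read on scaled libraries there were 1.95, 2.41 and 1.97 Hspd1 reads in IgG and 2.01, 1.93 and 1.76 in 5E1.

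The chaperone of the endoplasmic reticulum, BiP, is encoded by Hspa5 (chromosome 2, 34771970 to 34777547, plus strand), a member of the HSP70 family that also holds the stress sensors of the reticulum inactive. Hspa5 measured 818, 711 and 762 CPM in IgG and 745, 898 and 764 CPM in 5E1, with the groups interleaved. The ratio was 1.05 with a 95% interval of 0.885 to 1.25 (edgeR adjusted p 0.690). No 75-base window of it recurs in another transcript. The direction of Hspa5 and of Hspd1 depended on scaling, with log2 fold changes of -0.070 and -0.12 on library size alone.

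Ratios within a library do not depend on scaling between libraries, and 3 pairs of a member that rose and a member that was not called are given as a description. Hspa1b had 0.807, 0.749 and 0.932 reads per Hspa5 read in IgG and 1.501, 1.55 and 1.43 in 5E1. For Hspa8 over Hspa5 the values were 1.29, 1.16 and 1.19 in IgG and 1.69, 1.70 and 1.87 in 5E1. Hspb1 over Hspd1 came to 0.740, 0.559 and 0.994 in IgG and 1.42, 1.89 and 1.59 in 5E1. In all 3 pairs the groups were apart, and the mean ratio was 1.80, 1.44 and 2.14 times as high in 5E1. The pairs were chosen after the values were seen, so they restate the calls above. An exact permutation test gave p 0.1 for each pair, the smallest value possible with 3 libraries per group. It could therefore not pass, and nothing is drawn from it.

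**Figure D3:**
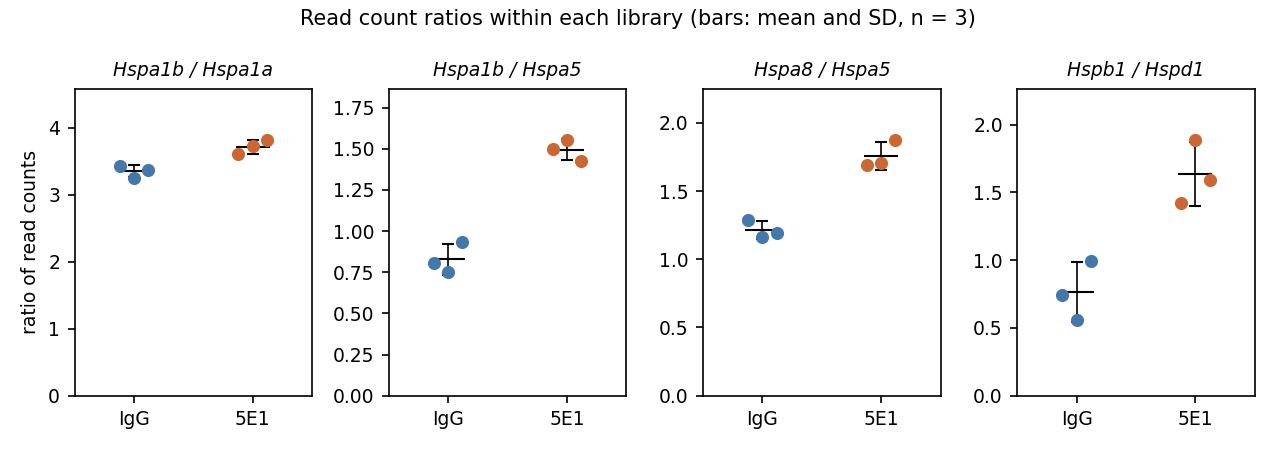
Ratios of read counts of 2 chaperone genes within each library, IgG in blue and 5E1 in orange, with the mean and SD of 3 libraries. Each vertical axis starts at 0, and in all 4 panels the 5E1 points lie above the IgG points, by the least for Hspa1b over Hspa1a.

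Levels of different genes were compared per kilobase of exon (RPKM on scaled library sizes). Exon length is that of all annotated transcripts of a gene merged. Genes with several transcripts, such as Hsph1 (7266 bases), can therefore stand lower in this order than per kilobase of 1 transcript. In IgG, Hspa1b stood at 226 ± 32.8, Hspa8 at 217 ± 26.9 and Hspa5 at 181 ± 12.7 RPKM (SD, n = 3), and neighbours in this order overlapped between libraries. Hspb1 (95.3 ± 20.5) and Hsp90aa1 (90.5 ± 5.53) followed and overlapped each other, and Hspa1a stood at 63.7 ± 8.01 RPKM. Hspd1 (49.3 ± 3.51), Dnajb1 (48.5 ± 13.8) and Hspe1 (42.1 ± 3.18) overlapped in turn, and Hsph1 was lowest at 16.2 ± 1.24 RPKM. In 5E1 Hspa1b reached 428 ± 60.1 and Hspb1, at 210 ± 42.5, stood above Hspa5 at 190 ± 19.8 RPKM in the mean. Counted per kilobase of windows that occur in no other gene, a choice made after seeing the data, IgG levels came to 512 RPKM for Hspa1b, 322 for Hspa8, 181 for Hspa5, 178 for Hspb1, 158 for Hsp90aa1, 139 for Hspa1a and 70.0 for Hspd1. On that scale Hspb1 (141 to 217 RPKM) overlapped Hspa5 (168 to 194 RPKM), which it did not per kilobase of exon.

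Calls among other chaperones were near the background. Of 77 other chaperone and co-chaperone genes in 7 lists, all tested, 9 rose and 10 fell, 24.7% of them against 23.2% of all genes, and their median log2 fold change was -0.08. On library size alone 3 rose and 24 fell, while the replicate block gave 7 and 5. With 1 library left out between 3 and 9 rose and between 2 and 10 fell, the fewest higher without IgG replicate 2 and the fewest lower without IgG replicate 1.

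Among regulators and partners of cytosolic HSP70, the heat shock factor list gave no call. It holds Hsf1, Hsf2, Hsf4 and Hsbp1, the last being the gene of a heat shock factor binding protein. By edgeR, DESeq2 and limma-voom 0 of 4 passed in either direction, and 2 had an unadjusted edgeR p under 0.05. On library size alone 2 fell, Hsbp1 and Hsf2 (edgeR adjusted p 0.0160 and 0.0344). Hsf1, the factor of the heat response, measured 34.9 ± 2.71 CPM in IgG and 31.6 ± 3.73 CPM in 5E1, and Hsf2 33.8 ± 5.30 and 28.05 ± 0.686 CPM. Of 12 further HSP70, HSP110 and nucleotide exchange genes, 2 rose and 1 fell. Bag3, an HSF1 target that links HSP70 to autophagy and to the small heat shock proteins, rose by a log2 fold change of 0.36 (edgeR adjusted p 0.0221). Its call ended without IgG replicate 2 (0.0938) or 5E1 replicate 3 (0.0921) on library size alone (0.111) and without both replicates 2 (0.0616). Hspa2 rose by 0.62 (edgeR adjusted p 0.0150), Hspa14, a ribosome-bound HSP70, fell by 0.31 on the log2 scale, and Hspa4l stood at 0.47 (edgeR adjusted p 0.0588). Hspa14 lost its call when any 1 IgG replicate or 5E1 replicate 3 was left out. Without both replicates 2 the calls of Hspa14 (0.0880) and Hspa2 (0.0603) ended.

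Among 9 further DNAJ co-chaperones 3 rose and 1 fell. Dnaja4 rose by 0.69 (edgeR adjusted p 0.00348), a call kept under all 15 alternatives, and Dnajb4 by 0.42 (0.0109), which ended at 0.0529 without IgG replicate 2 at 0.0523 on library size alone and at 0.0591 without both replicates 2. Dnaja1, at 0.27 (0.0487), and Dnaja2, at -0.27 (0.0352), each lost their call when any 1 of 5 libraries was left out, and Dnaja1 also without both replicates 2 (0.201). Of 5 further small heat shock protein genes 1 rose, Hspb8, at 0.63 (0.0497), which ended when any 1 library except 5E1 replicate 1 was left out and without both replicates 2 (0.265). Cryab, the alpha B crystallin gene, measured 72.2 ± 7.21 and 84.5 ± 2.59 CPM (edgeR adjusted p 0.0903), and passed without IgG replicate 3 (0.0446).

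In the list of HSP90 and its co-chaperones 1 of 12 genes rose and 3 fell. Hsp90ab1, the constitutive HSP90, stood at 1649 ± 32.7 CPM in IgG libraries, beside 1751 ± 49.3 CPM after 5E1 (edgeR adjusted p 0.592). Stip1, the adaptor HOP between HSP70 and HSP90, fell by 0.34 on the log2 scale (edgeR adjusted p 0.00966). Fkbp4 (-0.25) and Ptges3 (-0.28), which encode partners of steroid receptor complexes, fell at edgeR adjusted p of 0.0325 and 0.0371. Each lost its call when any 1 IgG replicate or 5E1 replicate 3 was left out. Both calls also ended with the replicate block (0.0606 and 0.0529) and without both replicates 2 (0.0857 and 0.0567). That of Fkbp4 ended without 5E1 replicate 2 (0.0647), and that of Ptges3 without 5E1 replicate 1 (0.0959) or with DESeq2 (DESeq2 adjusted p 0.0510). Fkbp5, a partner of the same complexes and a glucocorticoid target, rose from 20.2 ± 1.87 to 89.0 ± 27.8 CPM (log2 fold change 2.14, edgeR adjusted p 0.000700).

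The remaining lists cover the cytosolic chaperonin, the mitochondria and the endoplasmic reticulum, and beside them stands the 23.2% of all genes called. Of 13 genes of the CCT chaperonin and prefoldin, which fold actin and tubulin, 0 rose and 3 fell, led by Cct3 (log2 fold change -0.50, edgeR adjusted p 0.00179), and 7 fell on library size alone. The calls of Cct7 (-0.27) and Cct6a (-0.27) ended when any 1 IgG replicate or 5E1 replicate 3 was left out. Both also ended with the replicate block (edgeR adjusted p 0.0705 and 0.0566) and the 5 CPM filter, and Cct6a with RLE scaling. That of Cct7 ended without 5E1 replicate 2 (0.0753) and without both replicates 2 (0.116), and that of Cct6a without 5E1 replicate 1 (0.0954). Among 9 mitochondrial chaperones and proteases, 0 passed with edgeR, DESeq2 or limma-voom, and 3 had an unadjusted edgeR p under 0.05. On library size alone 2 of these fell, and 1 rose under either other filter on low counts. In the endoplasmic reticulum list 2 of 17 rose and 2 fell, with 0 and 8 on library size alone. Pdia4, a disulfide isomerase gene, fell by 0.35 on the log2 scale (edgeR adjusted p 0.00942, and 0.0550 without IgG replicate 1), and Hyou1, the HSP110 relative of the reticulum, by 0.30 (0.0184). Dnajb9 (0.46) and Dnajc3 (0.32), which encode lumenal co-chaperones of BiP, rose at edgeR adjusted p of 0.0317 and 0.0390. Hyou1, Dnajb9 and Dnajc3 lost their calls when any 1 IgG replicate was left out. Without 5E1 replicate 3 the calls of Hyou1 (0.0646) and Dnajc3 (0.118) ended. Without 5E1 replicate 2 those of Dnajb9 (0.0557) and Dnajc3 (0.0908) ended. Dnajc3 also lost its call with the replicate block (0.0676) and without both replicates 2 (0.13). Of 12 genes of the unfolded protein response and degradation 3 rose and 0 fell. These were the sensor gene Ern1 (0.44), Ddit3 (0.43) and Atf4 (0.33), at edgeR adjusted p of 0.0187 to 0.037, and 0 rose on library size alone, without IgG replicate 2 or without both replicates 2 (0.0990, 0.120 and 0.132).

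**Figure D4:**
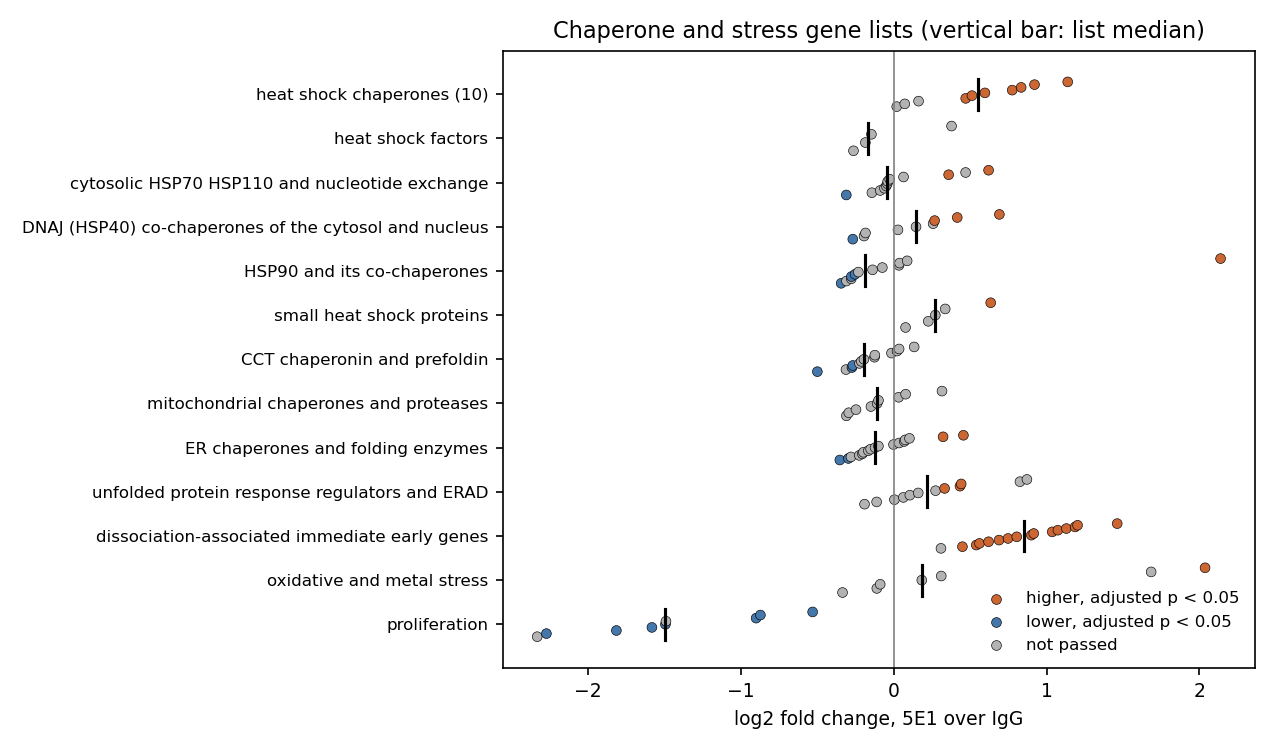
Log2 fold change of 5E1 over IgG for each gene (point), by list, with the list median as a vertical bar. Orange and blue points passed at an adjusted p under 0.05. The 10 heat shock chaperones lie above 0 with a median of 0.55, and the immediate early genes overlap them with a median of 0.85. The 5 small heat shock protein genes all lie above 0, and each of the other 6 chaperone lists has genes on both sides of 0.

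Immediate early genes, which respond to growth factors and also to tissue dissociation, were higher in the same libraries. Of 16 in the list 15 rose and 0 fell, beside 12.1% of all genes tested called higher and 11.1% lower. The list was chosen with earlier results of these data known. Their log2 fold changes had a median of 0.85, and between 10 and 15 rose with 1 library left out, 10 of them without 5E1 replicate 3. Their summed level was 9930, 6453 and 8980 CPM in IgG replicates 1 to 3 and 13357, 16687 and 17086 CPM in 5E1 replicates 1 to 3. IgG replicate 2 was thus the lowest for both gene groups, while in 5E1 the highest sum was in replicate 3 and the highest chaperone levels mostly in replicate 2. Dusp1 rose from 366 ± 71.8 to 832 ± 113 CPM and Fos from 1249 ± 285 to 2732 ± 438 CPM, with edgeR adjusted p of 0.000690 and 0.0020. Whether either group was raised in the lung or during dissociation was not tested. Sample numbers in the titles place the IgG libraries before the 5E1 libraries, and if they give the order of handling, order and antibody cannot be told apart.

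Markers of other cells differed by list, beside 12.1% of all genes tested called higher and 11.1% lower. Endothelial, epithelial, mesothelial and mesenchymal sums overlapped between the groups. Summed leukocyte markers ran from 91.2 to 112 CPM in IgG and from 202 to 352 CPM in 5E1, 3 of 8 being called higher. The T cell gene Cd3e, at 0.0704 CPM in IgG and 0.0099 CPM in 5E1, was too low to test. All 7 tested had positive log2 fold changes, of unlike size. Means in IgG and 5E1 were 4.36 and 71.7 RPKM for S100a8 and 11.9 and 142 RPKM for S100a9. For Lyz2 they were 48.9 and 90.7 RPKM, for Cd68 7.88 and 9.36 RPKM, and for Csf1r 1.47 and 2.40 RPKM. Endothelial markers summed to 87.6 to 107 and 105 to 219 CPM, epithelial markers to 383 to 632 and 427 to 1335 CPM, and globin and other red cell genes to 158 to 197 and 255 to 1098 CPM, with 1 of 5, 1 of 6 and 0 of 5 called higher. Epcam, a defining epithelial gene, stood at 1.07 ± 0.263 and 1.32 ± 0.518 CPM. Mesothelial markers summed to 10.6 to 40.1 and 34.8 to 102 CPM with 1 of 4 called higher, and mesenchymal markers to 44397 to 62487 and 56409 to 102040 CPM with 3 of 7. Proliferation genes were lower, 7 of 9 being called, with sums of 611 to 652 CPM in IgG and 197 to 350 CPM in 5E1. Mitochondrially encoded genes took 1.105% to 1.25% of gene reads in IgG and 1.14% to 1.40% in 5E1. The part of these in the chaperone differences was not tested.

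Genes whose level followed the inducible members most closely were found by Pearson r between log2 CPM and the mean log2 CPM of Hspa1a, Hspa1b, Hsph1 and Dnajb1. Over the 6 libraries the 5 closest of 10478 named genes were Fbxl13 (r 0.999), Gadd45b (0.998), Lpin3 (0.996), Dusp1 (0.996) and Ifitm3 (0.995). Because the libraries fall into 2 groups, 1006 genes had r over 0.9, and this is a description only. Gadd45b, a stress-induced gene, measured 199, 133 and 190 CPM in IgG and 332, 380 and 361 CPM in 5E1. Lpin3 and Fbxl13 are low, at 11.4 and 7.93 CPM in 5E1.

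**Figure D5:**
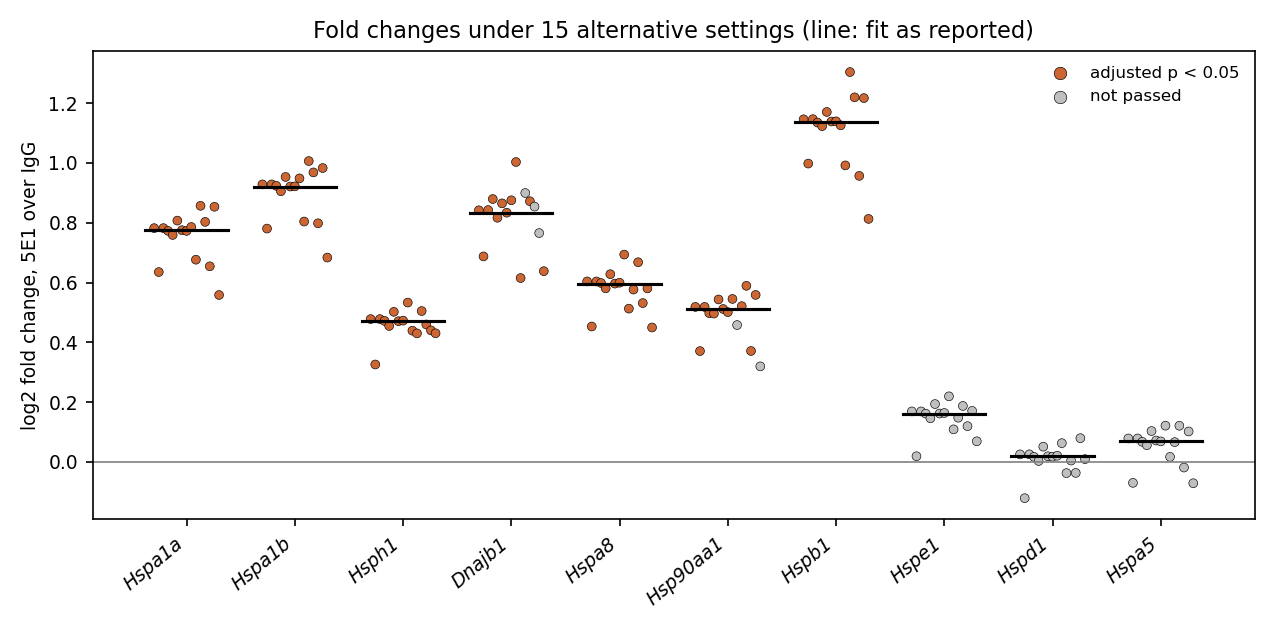
Log2 fold change of 5E1 over IgG for each chaperone under 15 alternative settings (points, orange where the adjusted p was under 0.05), with the reported value as a line. All points of Hspa1a to Hspb1 lie above 0, grey points occur for Dnajb1 and Hsp90aa1, and those of Hspd1 and Hspa5 fall on both sides of 0.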

How the data were processed

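RNA was sequenced from 6 libraries of sorted cells, 3 per group, each placed in its group by its title. The authors deposited raw counts of reads for each gene symbol, in a file for each library. Build mm10 and, in no stated role or order, HTSeq 0.6.0, STAR 2.5.0c, R 3.5.1, Picard 1.126, DESeq2 1.10.0 and bedtools 2.17.0 are named, per the submitters' processing notes. Not given in the sources used here were annotation, strand setting, read length and handling of duplicates. The 5 HTSeq summary lines name no gene and stayed out of library sizes and tests. They held 20.4% to 42.9% unaligned reads. Reads with more than 1 alignment made up 5.27% to 5.40% in IgG and 5.70% to 6.26% in 5E1. Reads outside any annotated gene made up 4.60% to 5.37% in IgG and 6.17% to 7.15% in 5E1. TMM factors ran from 1.03 to 1.07 in IgG and from 0.898 to 0.980 in 5E1. Ambiguous reads made up 1.94% to 2.44% in IgG and 2.17% to 2.66% in 5E1. The groups were thus apart in multiply aligned reads, reads outside genes and TMM factors, and overlapped in unaligned and ambiguous reads. The part of this in the differences was not tested.

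Here the counts were fitted in R 4.3.3 with edgeR 4.0.16 (filterByExpr at a minimum count of 10 and minimum total of 15, TMM scaling, robust glmQLFit, glmQLFTest, with group alone in the model). Tests were two-sided, with p-values adjusted by Benjamini-Hochberg over 16198 genes and called under 0.05. Log2 fold changes give 5E1 over IgG (prior count 0.125), and 95% intervals come from the fit's degrees of freedom. No pair of replicates was alike within counting noise (chi-square divided by its degrees of freedom, 15.9 to 56.7). Positions, exon lengths and transcripts are from GENCODE M21 (GRCm38), in which all 10 symbols matched.

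The members and lists were chosen with earlier results of these data known. Named genes are the members, up to 4 genes of smallest p per list and the 5 of most similar pattern, with others named beside a result. Alternatives were DESeq2 1.42.0, voom in limma 3.58.1, RLE scaling, library size alone, a filter at 5 CPM in 3 libraries or none, estimation that was not robust, a replicate block, each library left out, and, added after seeing the data, both replicates 2 left out and levels per unshared 75-base window.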

Additional observations from a re-analysis of the deposited data

How the results depend on the processing

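Direction and call of Hspa1a, Hspa1b, Hspa1a plus Hspa1b, Hsph1, Hspa8 and Hspb1 held in all 15 alternatives. With 1 library left out, log2 fold changes ran from 0.62 to 1.003 for Dnajb1 (edgeR adjusted p 0.00678 to 0.0756) and from 0.37 to 0.59 for Hsp90aa1 (0.00879 to 0.0579), and 6 or 7 members rose. Hspd1 (-0.037 to 0.080) and Hspa5 (-0.019 to 0.12) took both signs, and were -0.12 and -0.070 on library size alone. Without both replicates 2, Hspa5 was -0.071, Hsp90aa1 0.32 (adjusted p 0.0559), and 3 genes of the other chaperone lists rose. Genes called numbered 1221 to 1885 higher and 1073 to 1819 lower with 1 library left out, and other chaperones 3 to 9 higher and 2 to 10 lower. Library size alone, which moved the median over all genes by -0.14 on the log2 scale, gave 3274 genes lower, and 3 chaperones of the other lists higher and 24 lower. It took the share of calls that were higher from 52.3% to 28.6%. The replicate block changed no call of the 10 members and left 5 other chaperones lower. Same-numbered libraries did not deviate together (correlations -0.29, 0.07 and -0.10), and unlike-numbered ones ran from -0.14 to 0.30. With 3 libraries per group this cannot settle whether the numbers pair them. The cause of these changes was not tested. At these depths each member had at least 1032 reads per library, and the spread between 3 libraries limits precision.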

Other observations

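Oxidative and metal stress genes gave 1 call. Of 7 in this list 1 rose and 0 fell, and the median was 0.18 on the log2 scale. Mt1, a metallothionein gene that answers to metals and glucocorticoids, rose from 18.9 ± 8.65 to 78.4 ± 16.1 CPM (SD, n = 3 each, edgeR adjusted p 0.0120), and lost its call without IgG replicate 3 (0.0614) or 5E1 replicate 2 (0.0564), with the replicate block (0.0701) and with no low-count filter (0.0584). Mt2 measured 13.0 ± 8.08 and 42.3 ± 14.2 CPM (edgeR adjusted p 0.0720) and passed in 5 of 15 alternatives. These were DESeq2 (0.0178), limma-voom (0.00739) and, with edgeR, no robust estimation (0.0110), the 5 CPM filter (0.0431) and IgG replicate 1 left out (0.00902). Hmox1, the heme oxygenase gene that oxidative stress induces, measured 32.4 ± 6.39 and 40.2 ± 6.55 CPM (0.180), and Nqo1, an NRF2 target, 5.88 ± 0.435 and 4.66 ± 0.442 CPM (0.229).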
